A study of Mus musculus with 16 samples.

Results

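The microRNAs (miRs) miR-221 and miR-222 were followed across early mouse hematopoiesis on single-colour Agilent miR arrays. They were taken as every non-control probe annotated to mmu-miR-221 or mmu-miR-222, which gave 2 of the 577 miRs on the array. Both were among the 237 miRs that passed the detection filter, a signal well above background on at least 3 arrays. No other product of either hairpin was on the array.

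Each of the 16 arrays held total RNA of a population sorted from the bone marrow of pooled, young adult female C57Bl/6 mice, for which no treatment is named. Marrow was depleted of mature (Lin+) cells and enriched for c-Kit before sorting. The HSC subsets were Long-Term HSC (LT-HSC; Lin-, c-Kit+, Sca1+, CD34-, FLT3-; 1 array), Short-Term HSC (ST-HSC; the same but CD34+; 3 arrays) and Multipotent Progenitors (MPP; CD34+ and FLT3+; 3 arrays). The myeloid progenitors, all Lin-, c-Kit+ and Sca1-, were Common Myeloid Progenitors (CMP; intermediate CD34 and Fc receptor), Granulocyte-Monocyte Progenitors (GMP; CD34+, Fc receptor high) and Megakaryocyte-Erythroid Progenitors (MEP; negative for both), with 3 arrays each. Every gate required c-Kit protein, so no population without it was measured. The single LT-HSC array was assumed in every model to vary like the other populations. Per the study's methods, mice were pooled for each replicate sample, and p-values measure the spread between these arrays. With sorted pools, fewer cells holding a miR and less of it per cell cannot be told apart.

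MiR-221 and miR-222 are made from neighbouring hairpins on the X chromosome. A mature miR is loaded into an Argonaute protein and pairs with messenger RNAs mainly through its seed, bases 2 to 8, and the 2 miRs carry the same seed and so share most predicted targets. The best known of these in blood is Kit, the receptor for stem cell factor on stem and progenitor cells, and both miRs are known to decline as erythroid cells mature. Kit itself was not measured on these arrays.

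The mature sequences of RefSeq (GRCm38.p6) are shown because the 2 miRs share their seed, which is in capitals. The array names carry no arm, and the probes were matched to the 3p arms by their annotation and spacing.

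mmu-miR-221-3p: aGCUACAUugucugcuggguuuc

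mmu-miR-222-3p: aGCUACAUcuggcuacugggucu

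The first 8 bases were identical, and 11 of 23 positions were identical over the whole length. Of the 1679 mature mouse entries in the RefSeq table, 3 carried this seed, and the third, mmu-miR-1928, was not on the array. The mature miRs lie on the minus strand at chrX:19146307-19146329 for miR-221 and chrX:19146901-19146923 for miR-222 (GRCm38.p6). Their hairpins, Mir221 of 95 bases and Mir222 of 79 bases, are separated by 504 bases. Each miR had 2 probes with at most 10 spots each. In the array's own annotation (mm9), the miR-221 probes A_54_P2640 and A_54_P3830 cover 19 and 20 bases from chrX:18723433, and the miR-222 probes A_54_P2643 and A_54_P2644 cover 13 and 14 bases from chrX:18724029. Since probes differ in brightness for reasons of their own, the level of miR-221 was not compared with that of miR-222; only changes between arrays were.

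The arrays lay on 3 slides, which differed in brightness. The first 2 arrays of each myeloid progenitor were together on slide 1, which was read on another scanner model. The third of each shared slide 2 with LT-HSC 1 and ST-HSC 1, and slide 3 carried MPP with ST-HSC 2 and ST-HSC 3. The summed signal per array ran from 164053 to 335064 units on slide 1, from 34810 to 113362 on slide 2 and from 125672 to 163703 on slide 3, with the LT-HSC array the dimmest. Slides and populations overlap only in part, so results below are also given with slide as a block or within a slide where that alters them.

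The sorted populations were checked against miRs known for particular cells. The blood cell miRs miR-142-3p and miR-142-5p were well above background on all 16 arrays. None of the stroma, liver, muscle or nervous tissue miRs on the array passed the detection filter, and 1 of 4 epithelial miRs did. That miR, miR-200b, was well above background on the 3 MPP arrays alone. The lymphocyte miR miR-150 passed on 12 arrays, with means of 7.20 in MPP and 3.10 in MEP. MiR-223 of granulocytes and monocytes and miR-126-3p of endothelium and HSC were well above background on all 16. The part of other cells in the values below was not tested. The erythroid miRs miR-144, miR-451 and miR-486 were all detected, and their summed signal on the log2 scale was 12.0 to 12.6 on the MEP arrays. It was 5.10 to 8.27 on the ST-HSC, MPP, CMP and GMP arrays. The LT-HSC array stood apart from the other HSC subsets, with 11.2 for this sum, close to MEP. Its values below are therefore given with this erythroid signal beside them, and the part of that signal in any of them was not tested.

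MiR-221 and miR-222 were both lowest in MEP. Signal is given as log2 of quantile-normalized array units throughout, and both miRs were well above background on 16 of 16 arrays. MiR-221 read 6.34, 6.39 and 5.60 on the 3 MEP arrays. It read 9.09, 8.95 and 8.83 in CMP, and 8.93, 8.90 and 8.71 in GMP. Every MEP array thus lay far below every CMP and GMP array. Among the HSC subsets, miR-221 read 8.51, 9.09 and 9.14 in ST-HSC and 9.24, 9.28 and 9.37 in MPP. The LT-HSC array read 7.02, between MEP and all others. In order of mean, miR-221 was highest in MPP at 9.30 ± 0.06 (SD, n = 3), followed by CMP at 8.96 ± 0.13, ST-HSC at 8.91 ± 0.35, GMP at 8.85 ± 0.12, LT-HSC at 7.02 and MEP at 6.11 ± 0.45.

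MiR-222 read 4.66, 5.10 and 4.95 on the MEP arrays. In CMP it read 7.40, 7.29 and 7.50, and in GMP 7.40, 7.26 and 7.12. CMP and GMP arrays overlapped each other, and none came near the MEP arrays. ST-HSC read 7.91, 7.75 and 7.91, and MPP read 8.14, 8.08 and 8.28. LT-HSC read 6.91, below every other array but those of MEP. The order of means was MPP at 8.16 ± 0.10 (SD, n = 3), ST-HSC at 7.85 ± 0.09, CMP at 7.40 ± 0.10, GMP at 7.26 ± 0.14, LT-HSC at 6.91 and MEP at 4.90 ± 0.22. For miR-222, no ST-HSC or MPP array overlapped any CMP or GMP array. For miR-221 this held for MPP only, while the ST-HSC arrays, from 8.51 to 9.14, spanned those of CMP and GMP.

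**Figure D1:**
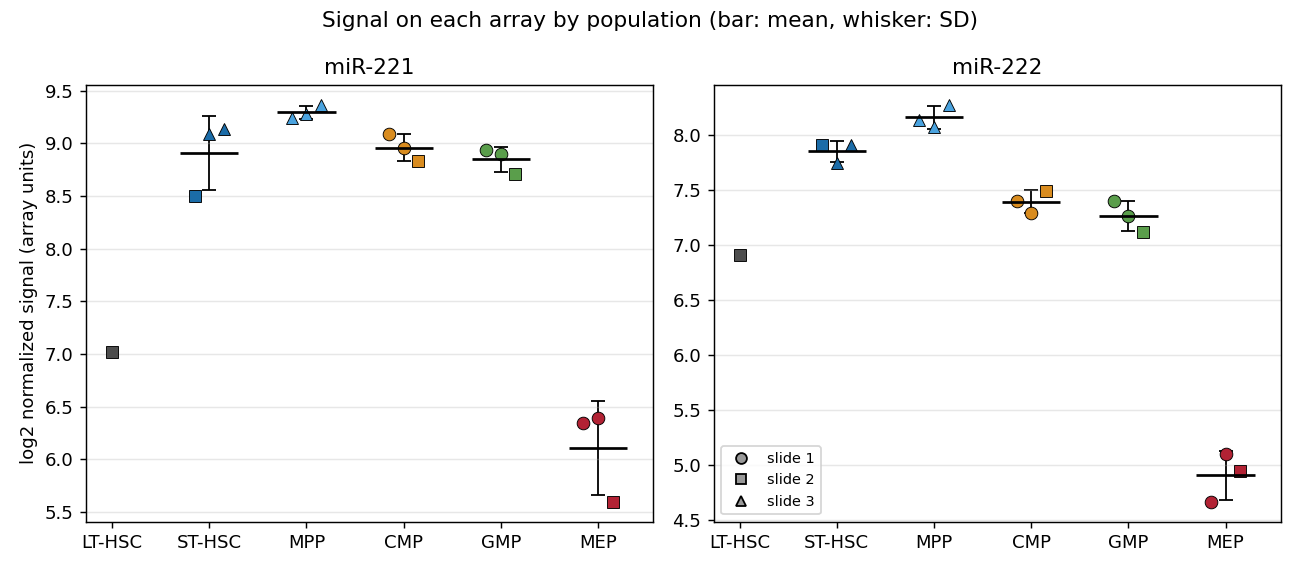
Log2 normalized signal of miR-221 (left) and miR-222 (right) on each of the 16 arrays, by population, with a symbol per slide, the mean as a bar and the SD as a whisker for populations with 3 arrays. The axes of the panels differ, since levels are not compared between the miRs. MEP is lowest for both, at a mean of 6.11 for miR-221 and 4.90 for miR-222, and the LT-HSC array lies next to it.

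Across the 6 populations, both miRs differed by limma's moderated F-test with Benjamini-Hochberg adjustment over the 237 miRs, as 82.7% of these miRs did. F was 51.7 for miR-221 (adjusted p = 6.21e-07) and 85.5 for miR-222 (adjusted p = 7.44e-08).

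Both miRs fell in MEP against the mean of the other 5 populations. MiR-221 fell by 2.50 on the log2 scale (SE 0.19, limma adjusted p = 2.12e-07), which is 5.65-fold. MiR-222 fell by 2.61 (SE 0.14, limma adjusted p = 6.53e-09), which is 6.13-fold. In this comparison 68.4% of the 237 miRs were called in either direction, and the median over all of them was -0.47. Relative to that median, miR-221 fell by 2.02 and miR-222 fell by 2.14. The size of the fall depended on how background was handled, while the call did not. In the deposited values, from which no spot-by-spot background was subtracted, miR-221 fell by 1.79 (limma adjusted p = 2.90e-07) and miR-222 fell by 1.59 (limma adjusted p = 6.56e-10). With the normexp background correction miR-221 fell by 1.73 (limma adjusted p = 6.20e-08) and miR-222 fell by 1.36 (limma adjusted p = 1.32e-09). The fall was seen within slides as well. MEP lay below the other populations of slide 1, CMP and GMP, with a difference of -2.60 for miR-221 and -2.46 for miR-222. On slide 2, with 1 MEP array against the 4 others, the differences were -2.67 and -2.41. All 4 probes gave the fall. Probe A_54_P2640 of miR-221 had a mean of 5.26 in MEP and 8.15 over the other 13 arrays. Probe A_54_P2643 of miR-222 had a mean of 4.17 in MEP and 7.01 over the others. On 1 MEP array, 50% of the spots of A_54_P2643 were called well above background, the lowest share for any of the 4 probes. Spots of this probe varied by 22.2% to 30.4% (coefficient of variation) on the MEP arrays, against a median of 6.98% over all arrays. Those of A_54_P2644, the brighter probe that stands for miR-222, varied by 23.7% on MEP 1, 30.2% on MEP 2 and 9.28% on MEP 3. Their median over all arrays was 6.08%.

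Between pairs of populations, the fall in MEP was called against 4 of the other populations for miR-221 and against all 5 for miR-222. The differences of miR-221 were 2.80 from ST-HSC, 3.19 from MPP, 2.85 from CMP and 2.74 from GMP, with a limma adjusted p of at most 1.04e-06. Those of miR-222 were 2.95, 3.26, 2.49 and 2.36 in the same order, with a limma adjusted p of at most 4.07e-07. In these pairs 59.9%, 71.3%, 64.6% and 62.9% of all tested miRs were called, in the same order. MPP, with the highest signal, thus stood farthest above MEP for both miRs. Against LT-HSC, where 27.8% of miRs were called, miR-222 was lower in MEP by 2.01 (SE 0.25, limma adjusted p = 5.26e-05), while the difference of miR-221 was 0.91 (95% interval 0.18 to 1.64, limma adjusted p = 0.0617).

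The LT-HSC array had less miR-221 than each of ST-HSC, MPP, CMP and GMP. The differences were -1.89 from ST-HSC, -2.27 from MPP, -1.94 from CMP and -1.83 from GMP, with limma adjusted p from 0.000313 to 0.00232. MiR-222 was also lower in LT-HSC than in ST-HSC, by 0.94 (limma adjusted p = 0.0158), and than in MPP, by 1.25 (limma adjusted p = 0.00199). Its differences from CMP and GMP were smaller, -0.49 (95% interval -1.02 to 0.05) and -0.35 (95% interval -0.89 to 0.19), and neither was called. These 4 comparisons called 22.8%, 38.8%, 42.2% and 42.6% of miRs, in the order ST-HSC, MPP, CMP, GMP. All rest on a single, dim array with the high erythroid signal given above. With arrays scaled to the 75th percentile of probes detected on all arrays, miR-222 in LT-HSC differed by -0.19 from ST-HSC and by -0.30 from MPP. Neither was called in that setting. Without normalization its difference from ST-HSC was -2.38 and also not called. Against the arrays of its own slide, LT-HSC 1 differed from ST-HSC 1 by -1.48 for miR-221 and -0.997 for miR-222.

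Among ST-HSC, MPP, CMP and GMP, no pair was called for miR-221 and 3 were for miR-222. Calls in one miR and not in the other do not test the difference between them, which is taken up below with the within-array difference. For miR-221, ST-HSC differed from CMP by -0.05 and from GMP by 0.06, and the sign of either turned in other settings. The largest difference of miR-221 was 0.45, between MPP and GMP (95% interval -0.07 to 0.96, limma adjusted p = 0.152). MiR-222 was higher in MPP than in CMP by 0.77 (SE 0.18, limma adjusted p = 0.00548) and than in GMP by 0.90 (SE 0.18, limma adjusted p = 0.00134). It was also higher in ST-HSC than in GMP, by 0.59 (SE 0.18, limma adjusted p = 0.0193), while its difference of 0.46 between ST-HSC and CMP was not called (limma adjusted p = 0.0856). With arrays scaled to the 75th percentile of all probes, none of these 3 calls of miR-222 was left, with values of 0.54 for MPP over CMP, 0.52 for MPP over GMP and -0.0090 for ST-HSC against GMP. The call of miR-222 between ST-HSC and GMP was also lost without GMP 2 (0.59, limma adjusted p = 0.0578) and without ST-HSC 3 (0.56, limma adjusted p = 0.0720). Without normalization none of the 3 was called, with 0.54 for MPP over CMP, 0.57 for MPP over GMP and -0.20 for ST-HSC against GMP. Without slide 1, MPP over CMP was 0.67 and ST-HSC over GMP was 0.70. That setting left a single array each of CMP and GMP, so sizes alone are given and no call is read from them. MPP shared no slide with CMP or GMP, so these populations were never compared within a slide. Of all miRs, 32.9% were called between MPP and CMP, 42.6% between MPP and GMP, 36.7% between ST-HSC and GMP and 17.7% between ST-HSC and CMP. The neighbours ST-HSC and MPP, where 4.64% of miRs were called, did not differ by the test for miR-221 (-0.38, 95% interval -0.90 to 0.13) or miR-222 (-0.31, 95% interval -0.69 to 0.07). Neither did CMP and GMP, where 7.59% were called, with 0.11 for miR-221 (95% interval -0.41 to 0.63) and 0.13 for miR-222 (95% interval -0.25 to 0.51). In all, 8 of 15 pairs were called for miR-221 and 10 for miR-222.

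**Figure D2:**
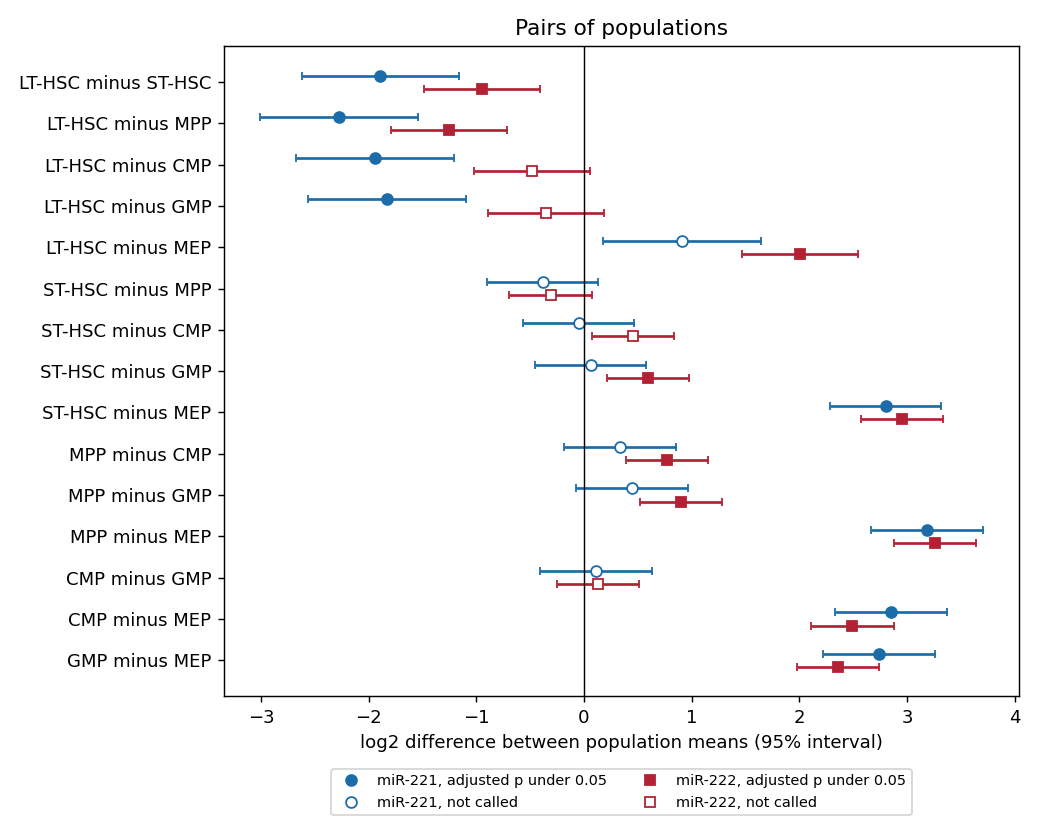
Difference in log2 signal between each of the 15 pairs of population means for miR-221 (circles) and miR-222 (squares), with 95% intervals from the limma fit; filled symbols have an adjusted p under 0.05. The pairs with MEP hold the largest differences, up to 3.19 and 3.26, and the pairs of MPP with CMP and GMP are called for miR-222 alone.

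The study's main division, HSC subsets against myeloid progenitors, was tested with equal weight for each population. MiR-222 was higher in the HSC subsets by 1.12 (SE 0.12, limma adjusted p = 7.61e-06), or 2.18-fold. MiR-221 was higher by 0.44 (SE 0.16, limma adjusted p = 0.0405). In this comparison 48.1% of miRs were called, with a median of 0.06. The call of miR-221 was lost with slide as a block (0.36, limma adjusted p = 0.0958) and with the replicate number as a block (0.44, limma adjusted p = 0.0548), and its difference was -0.018 when arrays were scaled to the 75th percentile of all probes and -0.53 without normalization. The low MEP arrays and the low LT-HSC array act on these differences in opposite directions. Without the LT-HSC array the difference was 1.13 for miR-221, and that of miR-222 was also larger. With MEP left out, the difference of the HSC subsets from CMP and GMP was -0.49 for miR-221 (SE 0.17, limma adjusted p = 0.0293; 51.9% of miRs called), and 0.31 for miR-222 (SE 0.13, limma adjusted p = 0.0552). With LT-HSC left out too, ST-HSC and MPP differed from CMP and GMP by 0.20 for miR-221 (SE 0.17, limma adjusted p = 0.337) and by 0.68 for miR-222 (SE 0.12, limma adjusted p = 0.000797), in a comparison that called 48.1% of miRs. These last 2 comparisons were chosen after the values were seen. For miR-222, ST-HSC and MPP against CMP and GMP was 0.27 with the 75th percentile of all probes and 0.17 without normalization, neither called.

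Whether the miRs stay in step was first described by correlation. Over the 16 arrays, miR-221 and miR-222 had a Pearson r of 0.93 and a Spearman rho of 0.86. Leaving out any single array gave r between 0.91 and 0.96. The arrays fall into clusters, however, with MEP low for both, and the pooled value rests largely on that gap. Without the 2 arrays farthest from the median of miR-221, MEP 3 and MEP 1, r was 0.87 (n = 14). Without the MEP arrays r was 0.65 (n = 13), and without LT-HSC as well it was 0.57 (n = 12). When each array was taken as its deviation from the mean of its population, r was -0.064 and Spearman rho was 0.077 (n = 15). This does not show that replicates high for miR-221 were low for miR-222. The array highest for miR-221 was also highest for miR-222 in MPP, GMP and MEP, and tied for highest in ST-HSC. In CMP another array was highest. These values describe arrays that share slides and normalization.

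**Figure D3:**
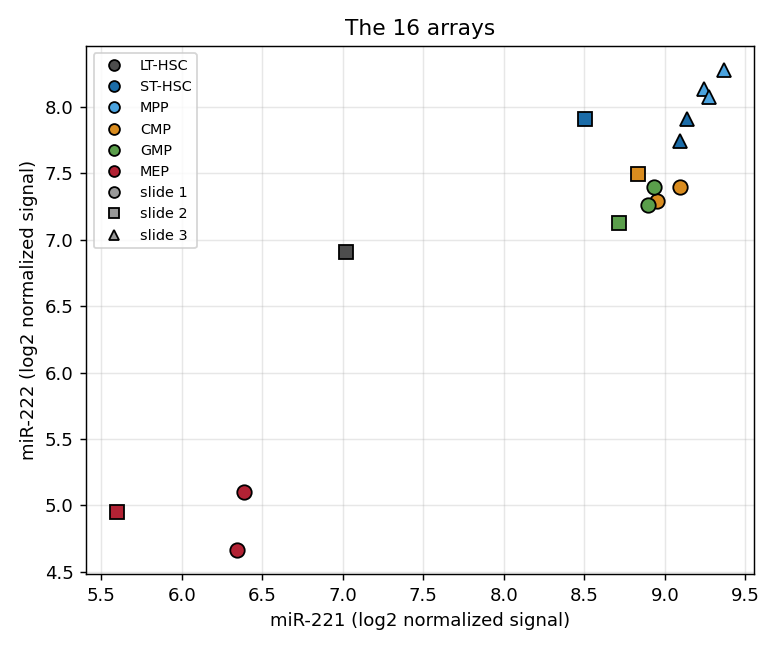
MiR-222 against miR-221, both as log2 normalized signal, on the 16 arrays, with a colour per population and a symbol per slide. The MEP arrays lie at the lower left and carry much of the r of 0.93. ST-HSC and MPP lie above CMP and GMP in miR-222. The MPP arrays also read higher than every CMP and GMP array for miR-221.

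The second measure was the difference miR-222 minus miR-221 within an array, in which anything that scales a whole array cancels. Its level has no meaning, since 2 probes are compared, and only its change between arrays does. It was -1.69, -1.66 and -1.34 in CMP and -1.54, -1.63 and -1.59 in GMP. It was -1.11, -1.20 and -1.09 in MPP, all above every CMP and GMP array. In ST-HSC it was -0.60, -1.35 and -1.23, and on the LT-HSC array it was -0.11, the highest of all. MEP spread most widely, with -1.68, -1.29 and -0.65. The arrays of LT-HSC, ST-HSC 1 and MEP 3, with the 3 highest differences, all lay on slide 2, where their summed signals were 34810, 73175 and 89579 units. The part of slide and brightness in this was not tested beyond the values that follow.

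Across the 5 populations with 3 arrays, the within-array difference was not called (F ratio 1.94, exact permutation test over 1401400 arrangements, p = 0.166). HSC subsets stood above myeloid progenitors by 0.50, with -0.95 ± 0.44 (SD, n = 7) against -1.45 ± 0.34 (SD, n = 9; exact permutation test, two-sided, p = 0.0193). The difference was 0.36 without the LT-HSC array (exact permutation p = 0.0462). It was 0.84 within slide 2, with 2 arrays against 3. In the limma fit with slide as a block, HSC subsets stood higher by 1.17 for miR-222 and 0.36 for miR-221. Slide 1 held only myeloid progenitors and slide 3 only HSC subsets, so subtracting slide means removes their part of the difference by construction. With slide means subtracted, the within-array difference was 0.26 (exact permutation p = 0.133), which was not called and cannot measure the part of slide. Nor was it called in the deposited values (0.36, exact permutation p = 0.0872), with normexp (0.21, exact permutation p = 0.329) or without the arrays of slide 1 (0.18, exact permutation p = 0.583).

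MEP did not differ from the other populations with 3 arrays in the within-array difference, at 0.13 (exact permutation p = 0.615), and it turned to -0.15 without MEP 3 (exact permutation p = 0.549). This result depended on how background was handled. The miR-222 signal in MEP was dim, at 20.3 to 33.7 units before normalization, and the part of this was not tested. In the deposited values, from which no spot-by-spot background was subtracted, MEP stood higher by 0.42 (exact permutation p = 0.044). With the normexp correction and its offset of 50 units, MEP stood higher by 0.59 (exact permutation p = 0.00659), and the difference across populations was called (exact permutation p = 0.00508). The mean difference in MEP was -1.21 ± 0.52 with subtraction, -0.77 ± 0.36 in the deposited values and -0.49 ± 0.19 with normexp (SD, n = 3). The contrast of CMP and GMP with MPP kept its direction under all 3 treatments, with means of -1.40 and -1.42 against -0.98 in the deposited values and of -1.24 and -1.24 against -0.97 with normexp. MPP shared no slide with CMP or GMP, so this contrast was never seen within a slide, and it was not tested.

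**Figure D4:**
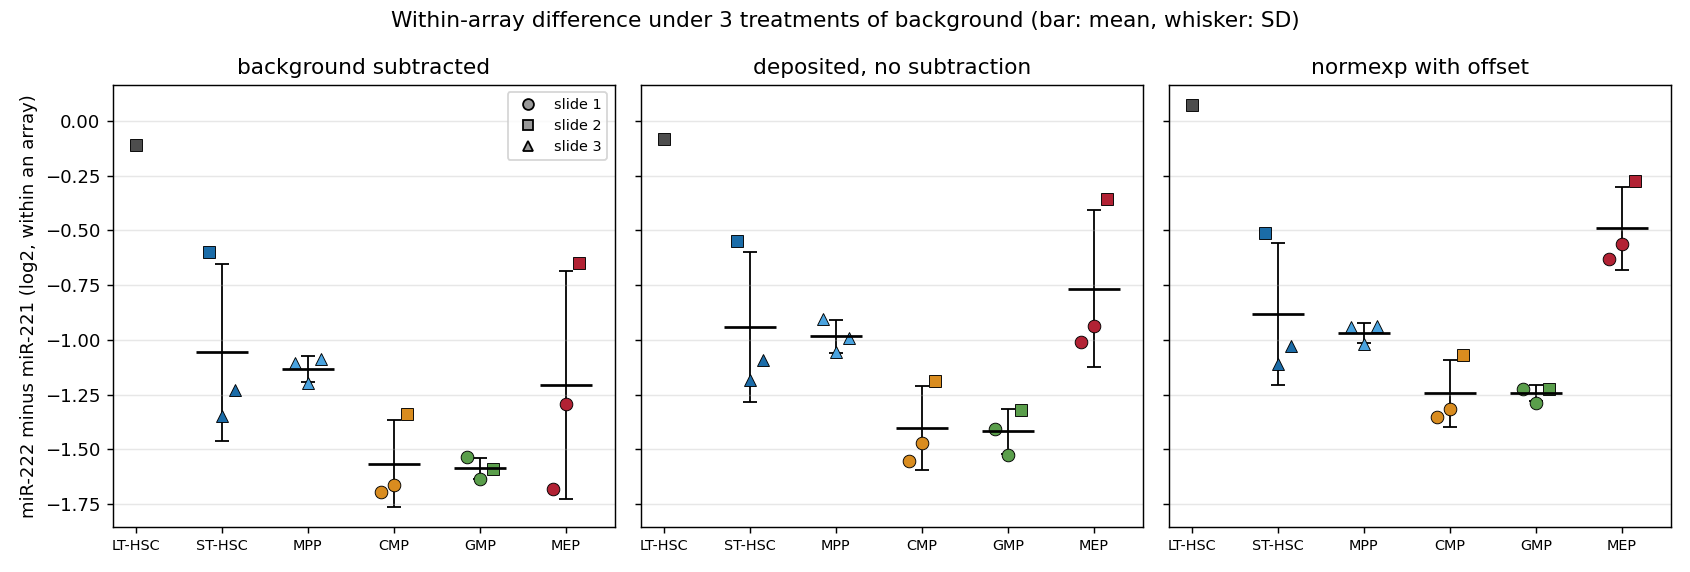
Within-array difference miR-222 minus miR-221 (log2) by population after background subtraction (left), in the deposited values without spot-by-spot subtraction (middle) and after normexp with an offset (right), with a symbol per slide, means as bars and SD as whiskers. CMP and GMP lie below MPP, with which they shared no slide, in each panel, while the MEP mean moves from -1.21 to -0.77 and -0.49.

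The similarity of the pair was set against that of other miRs. Among the 236 other miRs, miR-222 ranked 5th in Pearson r with miR-221, and miR-221 ranked 8th with miR-222. Without MEP these ranks were 38 and 42. The miRs most like miR-221 over the 16 arrays were miR-23b (r = 0.99), miR-467b (0.97), miR-181a-1* (0.93), miR-542-3p (0.93) and miR-222 itself. Those most like miR-222 were miR-23a (r = 0.97), miR-542-3p (0.96), miR-203 (0.95), miR-30d (0.95) and miR-99a (0.94). MiR-23a, for instance, had a mean of 7.40 in MEP and between 10.2 and 10.8 in every other population. The least like miR-221 were miR-144 (r = -0.96), miR-762 (-0.95) and miR-486 (-0.94), and the least like miR-222 were miR-682 (r = -0.95), miR-144 (-0.92) and miR-483 (-0.91). MiR-144 and miR-486 are the erythroid miRs named above, and miR-144 had a mean of 9.25 in MEP, 5.29 on the LT-HSC array and at most 2.81 elsewhere. Several of these r rest in part on values at or near the floor of 1.62, to which lower signals were set. MiR-682 was well above background on 3 arrays, and miR-144 and miR-486 on 5. MiR-467b, miR-542-3p and miR-203 lay at the floor in MEP, and miR-181a-1* at 1.65. MiR-23a, miR-23b, miR-30d and miR-483 were well above background on all 16. The median r over all other miRs was 0.42 for miR-221 and 0.32 for miR-222, so a positive r was common.

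Pairs of tested miRs that lie within 10000 bases of each other on 1 strand, like miR-221 and miR-222, numbered 182, arms of the same hairpin and large clusters included. Their r over the 16 arrays had a median of 0.52, from -0.82 for miR-30c-1* with miR-30e* to 0.99 for let-7d with let-7a. MiR-221 and miR-222 ranked 12th. Without MEP the median was 0.50 and the pair ranked 65th. The SD of its within-array difference over 16 arrays, 0.45, ranked 22nd from the smallest, against a median of 0.79.

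**Figure D5:**
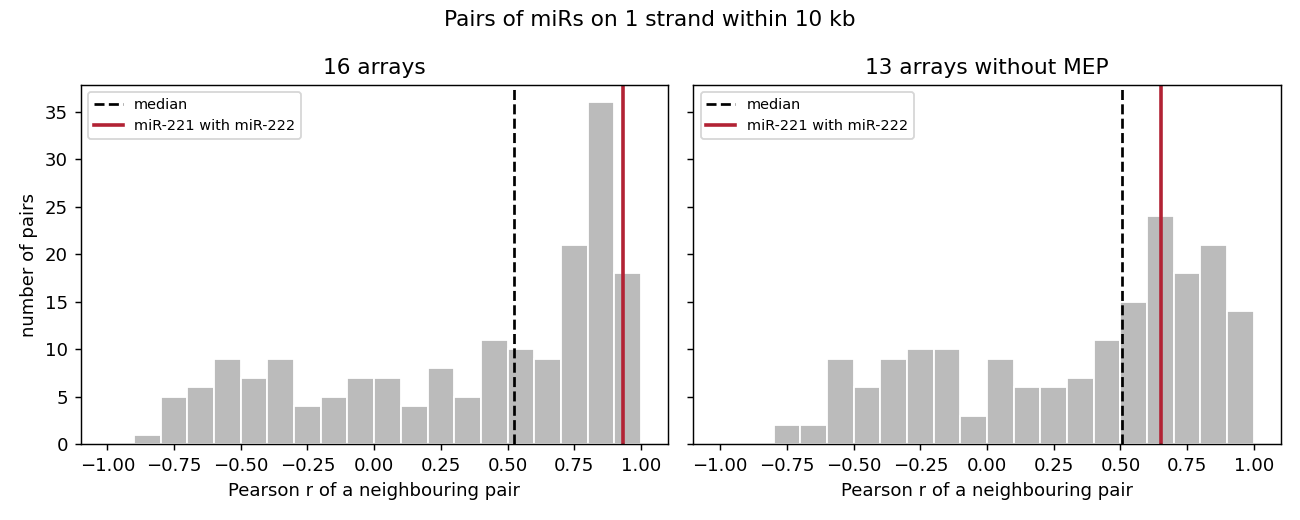
Number of neighbouring miR pairs by Pearson r over 16 arrays (left) and over the 13 arrays without MEP (right), with the median as a dashed line and miR-221 with miR-222 as a solid line. The pair stands at 0.93 against a median of 0.52 with MEP, and at 0.65 against 0.50 without.

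Other miRs known to repress Kit did not share a common course with miR-221 and miR-222. Of 7 such miRs on the array, 4 passed the detection filter, and 3 of these were called across the populations, where 82.7% of all tested miRs were. MiR-137, miR-218 and miR-34c were well above background on none of the 16 arrays. MiR-193 was dim, well above background on 5 arrays. It lay at the floor of 1.62 in MEP and had a mean of 4.10 in MPP (MEP against others -1.80, limma adjusted p = 0.000444), so the size of its difference is not firm. MiR-193b went the other way, with 3.90 in MEP, but also 3.71 in ST-HSC and 3.64 in CMP, and passed on only 3 arrays (1.14, limma adjusted p = 0.000199). MiR-494 was bright everywhere and higher in MEP by 1.59 (limma adjusted p = 0.00155), at 12.1, and the LT-HSC array also read 12.1. MiR-34a, a target of p53, was well above background on 16 arrays and had means between 5.88 and 6.74 (moderated F adjusted p = 0.144). Thus 1 of the 4 detected members was lower in MEP, 2 were higher and 1 was not called, in a comparison that called 68.4% of all tested miRs.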

How the data were processed

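The authors deposited Agilent Feature Extraction output for each array, whose processed signal is a background-subtracted intensity in scanner units, and log2 values that they had quantile-normalized with limma. Within each array the deposited log2 values followed the median foreground signal (Spearman rho 1), so they hold no spot-by-spot background subtraction. A constant subtracted from a whole array would leave the same ranks and cannot be told from these values. Here control spots, non-uniform spots and population outliers were left out, spots of a probe were averaged, and 1712 probe means were quantile-normalized over 16 arrays. Lower signals were set to 3.07 units (log2 1.62), which is the median over arrays of the negative controls' 95th percentile. Detection on an array meant that Feature Extraction called 0.5 or more of a probe's spots well above background, and 3 such arrays were required, which left 493 probes of 237 miRs. Each miR was represented by its brightest probe among these.

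Population means were fitted with limma (version 3.58.1, functions lmFit and eBayes; R 4.3.3) (10 residual and 3.1 prior degrees of freedom), with Benjamini-Hochberg adjustment over 237 miRs within each comparison and calls at 0.05. Within-array differences were compared by two-sided exact permutation tests (Python 3.11.15, numpy 2.4.6). Figures were drawn with matplotlib 3.10.9. The number of arrays limits the precision. Groups came from sample titles and slides from array names. Titles without a number were numbered here, as 3 for CMP, GMP and MEP and as 1 for LT-HSC, ST-HSC and MPP. Same-numbered arrays of CMP, GMP and MEP, which share a slide, deviated together from their population means (correlations of 0.23 to 0.63, over 0.1 in 9 of 9 pairs). These correlations cannot tell pairing from the shared slide, and no label states that same-numbered arrays were paired. The replicate block therefore rests on the numbers alone. Arrays 1 and 2 of these populations, on the same slide, also correlated across numbers (0.30 to 0.45). All other same-numbered pairs correlated over 0.1 in 3 of 21. The members, marker lists, Kit-repressing list and tests were chosen with earlier results of these data known. Named miRs were the members, the 5 most and 3 least correlated with each, the Kit-repressing miRs that passed and the neighbouring pairs of highest and lowest r. Alternatives covered scaling, background, floor, filter, probe choice, deposited values, slide or replicate number as a block, an intensity trend and each array left out. For the within-array difference, a block meant that the mean of each slide or replicate number was subtracted.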

Additional observations from a re-analysis of the deposited data

Results flagged for a closer look

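Within the 7 arrays of HSC subsets, the LT-HSC array lay far below the others for both miRs, at 7.02 for miR-221 and 6.91 for miR-222. Within the 9 arrays of myeloid progenitors, MEP 3 lay far above the others in miR-222 minus miR-221, at -0.65. Each was flagged because the gap to the nearest array was a large share of the whole range (0.63, 0.61 and 0.61). Of 6 such sets of arrays, 3 were flagged, where chance flags about 1 in 20; the sets pool populations, so a gap can be a difference between populations.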

How the results depend on the processing

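The F-tests, the fall in MEP and the numbers of called pairs (8 to 9 for miR-221, 7 to 12 for miR-222) kept their direction and stayed past the threshold, or within 1.5 times, under every alternative run, but the size of the fall in MEP moved. MiR-221 stood at -1.79 in the deposited values, -1.76 in those with slide as a block, -1.73 with normexp and -1.66 with normexp and slide as a block, against -2.50. MiR-222 stood at -1.59, -1.61, -1.36 and -1.40 in the same order, against -2.61. Within slides, the fall of miR-222 in MEP was -2.46 on slide 1 and -2.41 on slide 2. The median over all tested miRs for HSC subsets against myeloid progenitors moved from 0.06 to 0.40 with scaling to the 75th percentile of the probes detected on all arrays, to -0.13 with that of all probes and to -0.60 without normalization. Relative to these medians, miR-221 stood at 0.38, 0.13, 0.12 and 0.07, and miR-222 at 1.06, 0.85, 0.83 and 0.79. The causes of the changes given here were not tested.

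For HSC subsets against myeloid progenitors, miR-221 was no longer called in the deposited values (0.28), in those with slide as a block (0.22), with the mean of probes (0.37), with no detection filter (0.44), with slide as a block (0.36), with normexp and slide as a block (0.16) or with the replicate number as a block (0.44), and it was -0.53 without normalization and -0.018 with scaling to the 75th percentile of all probes. Within slide 2 it was 0.049 and miR-222 0.89. MiR-222 was 0.67 with normexp, 0.70 with scaling to the 75th percentile of all probes and 0.19, not called, without normalization. Leaving out each array in turn gave 0.35 to 1.13 for miR-221, highest without the LT-HSC array, with a limma adjusted p of up to 0.0684 and 6 of 16 runs called.

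Over all populations, same-numbered arrays correlated over 0.1 in 12 of 30 pairs, and 9 of 15 arrays correlated best with their own number. With the replicate block, which changed no call of either miR among CMP, GMP and MEP, 8 and 10 pairs were called. With the mean of each replicate number subtracted, the within-array difference between HSC subsets and myeloid progenitors was 0.48 (exact permutation p = 0.0187). Some of these numbers were assigned here, so the block is not a known pairing.

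For that within-array difference, HSC subsets against myeloid progenitors was 0.36 in the deposited values, 0.21 with normexp and 0.18 without slide 1, all not called. It was 0.26, not called, with slide means subtracted, which shrinks it by construction. Within slide 2 it was 0.84, and leaving out each array gave 0.36 to 0.61. The F ratio was 4.29 in the deposited values and 8.69 with normexp, both called, and 1.43 to 3.55 with each array left out, called only without MEP 3. MEP against the others was 0.42 and 0.59 under the same settings, both called, -0.028 with probes A_54_P2643 and A_54_P3830, and -0.15 to 0.38 with each array left out.

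The r of 0.93 was 0.87 with scaling to the 75th percentile of probes detected on all arrays, 0.87 without the 2 farthest arrays, 0.65 without MEP, 0.57 without MEP and LT-HSC and -0.064 as deviations from population means.

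Signs changed mostly for differences that were not called. For miR-221, ST-HSC minus GMP became -0.056 (deposited values, slide block), -0.093 (normexp, slide block), -0.085 (slide block), -0.90 (no normalization) and -0.71 (75th percentile of all probes), and ran from -0.053 to 0.27 with each array left out. MPP minus CMP became -0.019, -0.027 and -0.015 with the first 3 of these settings. ST-HSC and MPP minus CMP and GMP became -0.037, -0.060, -0.050, -0.37 and -0.27 with all 5 in that order. CMP minus GMP became -0.15 and -0.20 with the last 2. MPP minus GMP became -0.028 with the 75th percentile of all probes, LT-HSC minus MEP became -0.85 without normalization, and ST-HSC minus CMP became 0.13 without slide 1 and ran from -0.16 to 0.15 with each array left out. HSC subsets minus CMP and GMP ran from -0.54 to 0.20, positive without the LT-HSC array. For miR-222, ST-HSC minus GMP, a called difference, became -0.20 without normalization and -0.0090 with the 75th percentile of all probes. The same settings gave -0.75 and -0.22 for HSC subsets minus CMP and GMP. ST-HSC minus CMP became -0.23 without normalization, and CMP minus GMP -0.018 with the 75th percentile of all probes. With the 75th percentile of probes detected on all arrays, LT-HSC minus CMP became 0.31 and LT-HSC minus GMP 0.62. Over the 18 called pairs, 555 of 569 results under alternatives kept both direction and call. The number of arrays, and for LT-HSC the lack of a second one, limits these results, as does the dim miR-222 signal in MEP.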
